A study of Mus musculus with 12 samples.

Results

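The CC chemokines Ccl2, Ccl3, Ccl4, Ccl5, Ccl6, Ccl7, Ccl8, Ccl9, Ccl11 and Ccl12 were followed through experimental chronic pancreatitis in mouse pancreas. These 10 genes, of 18194 genes with a probe set of their own on the array, were chosen by symbol. Each was represented by the probe set annotated to it alone, and where a gene had 2 of these, Ccl6 and Ccl9, by the one with the higher mean over all arrays. RNA of whole pancreas, taken from mice aged 8 weeks, was hybridized to 12 Affymetrix arrays, 1 mouse each, in 4 groups of 3. These were C57BL6/J mice from Jackson given cerulein, C57BL6/NHsd mice from Harlan given cerulein, C57BL6/J mice given saline and C57BL6/NHsd mice given saline. The substrains are called J and NHsd here. Cerulein is an analogue of cholecystokinin, and repeated injection injures the acinar cells of the pancreas. The labels give no dose, injection schedule or sex. Values are the deposited log2 signals, whose lowest value was 2.39 and highest 16.37.

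CC chemokines are small secreted proteins that bind G protein-coupled receptors on leukocytes and draw these cells into tissue. The monocyte chemoattractant group, with Ccl2, Ccl7 and Ccl12, acts through Ccr2 and brings monocytes from the blood. Mouse Ccl8, placed in that group by sequence, signals mainly through Ccr8. Ccl11, or eotaxin, acts on Ccr3 of eosinophils. Ccl6 and Ccl9, found in rodents, act on Ccr1, and Ccl3, Ccl4 and Ccl5 attract T cells, monocytes and other leukocytes. In the inflamed pancreas, macrophages and injured acinar cells are known sources of several of them.

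All 10 genes lie on chromosome 11 in 2 runs, by the RefSeq annotation of assembly GRCm38.p6. The first run is Ccl2, Ccl7, Ccl11, Ccl12 and Ccl8, and the second is Ccl5, Ccl9, Ccl6, Ccl3 and Ccl4. No other protein-coding gene lies within either run, and 26 protein-coding genes lie between them. Promoter windows of 300 bases, with 250 before and 50 after the gene start, were found for 5 of the members in the RefSeq table of that assembly: Ccl3, Ccl6, Ccl8, Ccl9 and Ccl12. The windows of 2 neighbouring pairs are shown because both genes of each pair read higher on every J cerulein array than on every J saline array. That held for 52.2% of all genes tested below. Capitals mark runs of at least 8 bases that matched between the aligned windows of a pair.
Ccl8, chr11:82114935-82115234, plus strand: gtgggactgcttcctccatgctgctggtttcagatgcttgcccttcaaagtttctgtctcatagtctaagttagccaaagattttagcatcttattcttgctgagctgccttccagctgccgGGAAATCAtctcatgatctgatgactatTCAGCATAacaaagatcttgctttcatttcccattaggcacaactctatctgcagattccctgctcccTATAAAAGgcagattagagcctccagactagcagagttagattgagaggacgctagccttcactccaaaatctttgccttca
Ccl12, chr11:82101595-82101894, plus strand: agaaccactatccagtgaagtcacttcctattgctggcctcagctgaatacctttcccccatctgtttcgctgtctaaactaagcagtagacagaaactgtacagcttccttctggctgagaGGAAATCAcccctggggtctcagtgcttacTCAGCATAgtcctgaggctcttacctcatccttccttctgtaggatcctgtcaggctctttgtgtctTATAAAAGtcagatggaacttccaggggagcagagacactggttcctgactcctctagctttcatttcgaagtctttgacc
Ccl9, chr11:83578587-83578886, minus strand: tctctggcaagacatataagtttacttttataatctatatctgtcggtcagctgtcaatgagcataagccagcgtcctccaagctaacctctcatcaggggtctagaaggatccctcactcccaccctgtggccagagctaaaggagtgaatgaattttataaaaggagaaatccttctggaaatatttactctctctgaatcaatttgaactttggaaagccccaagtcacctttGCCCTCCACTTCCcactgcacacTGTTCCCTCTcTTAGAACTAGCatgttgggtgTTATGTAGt
Ccl6, chr11:83593038-83593337, minus strand: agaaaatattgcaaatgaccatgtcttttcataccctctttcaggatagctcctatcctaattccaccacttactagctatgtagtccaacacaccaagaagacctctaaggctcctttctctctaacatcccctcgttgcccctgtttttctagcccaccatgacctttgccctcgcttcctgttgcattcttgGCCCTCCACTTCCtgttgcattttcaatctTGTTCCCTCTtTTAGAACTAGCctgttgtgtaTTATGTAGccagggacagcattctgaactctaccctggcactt

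The aligned windows of Ccl8 and Ccl12 were identical at 55.7% of columns, against 44.3 to 50.7% for the pairs other than these and Ccl9 with Ccl6. They shared 3 runs, each of 8 bases. One of these, TATAAAAG, holds the letters TATAAA and starts 32 bases before the gene start in Ccl8 and 31 bases before it in Ccl12. The windows of Ccl9 and Ccl6 were identical at 47.1% of columns and shared 4 runs, the longest, GCCCTCCACTTCC, of 13 bases. Aligned runs were counted in these 2 pairs alone. Without alignment, the longest exact run shared by 2 windows was 11 bases for Ccl8 with Ccl12 and 13 for Ccl9 with Ccl6. It was 7 to 9 bases for the other pairs. The letters TATAAA, searched on both strands, occurred in 3 of the 5 members' windows and in 13.6% of 32851 windows of that length. The NF-κB consensus occurred in 1 of the 5, that of Ccl9, against 8.46% of all windows. The AP-1 letters TGANTCA also occurred in that of Ccl9 alone, against 7.81% of all windows. The STAT letters TTCNNNGAA occurred in 0 of the 5 and in 8.30% of all windows, and the interferon response letters (GAAA, any 2 bases, GAAA) in 0 of the 5 and in 3.44% of all windows. These matches describe the letters in the windows.

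Testing was limited to genes whose probe set read above log2 4 in 3 or more of the 12 mice, which left 8505 of the 18194 genes. Of the 10 members, 5 passed, namely Ccl5, Ccl6, Ccl8, Ccl9 and Ccl11. Ccl2, Ccl3, Ccl4 and Ccl7 lay under log2 4 on all 12 arrays, and Ccl12 exceeded it on 2. Most of the tested genes were higher after cerulein: the median log2 difference over all tested genes was 0.49 in the mean of both substrains, 0.47 in J and 0.49 in NHsd. Of all calls in the mean of both substrains, 85.5% were higher, against 42.4% with the arrays shifted to equal medians and 45.1% after quantile normalization. Those rescalings moved the median to -0.10 and -0.06. The hybridization spike-ins, bacterial transcripts added in fixed amounts, averaged log2 6.41 to 6.81 on the cerulein arrays and 7.96 to 9.09 on the saline arrays. The groups did not overlap there, and the part of this in the results below was not tested. The labels name no batch.

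Certain arrays stood apart in ways that bear on the chemokines. J cerulein replicate 1 had the lowest mean correlation with its own group, 0.983. Its fibroblast markers summed to log2 12.26, under the 13.67 and 13.23 of the other J cerulein arrays, while its macrophage markers summed to 13.05, against 13.10 and 12.61 on the others. J saline replicate 1 held Glycam1, a mucin-like protein of lymph node vessels, at log2 6.66, and no other array exceeded 2.65. The other 3 of the 4 measured lymph node markers, Madcam1, Cr2 and Fcer2a, were under log2 4 on all 12 arrays. Several chemokine results below are given with and without these arrays.

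Ccl8 had the largest rise of all 8505 genes in J mice. It read log2 10.18, 9.53 and 8.86 in J cerulein mice, against 4.75, 2.98 and 3.02 in J saline mice. In NHsd mice it read 7.84, 7.87 and 8.13 after cerulein, against 5.11, 3.53 and 4.20 after saline. Every cerulein array was above every saline array, which held for 40.0% of all tested genes. The 3 J cerulein arrays were above the 3 NHsd cerulein arrays, which held for 7.94%.

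The log2 difference of Ccl8, cerulein minus saline, was 5.94 in J (SE 0.49, limma adjusted p = 2.00e-06) and 3.67 in NHsd (SE 0.49, adjusted p = 7.45e-05). These are 61.3-fold and 12.7-fold. As 2 of 3 J saline arrays and 1 of 3 NHsd saline arrays lay under log2 4, the folds are inexact; with values under log2 4 set to log2 4 they were 38.7-fold and 11.4-fold. In the mean of both substrains the difference was 4.80 (SE 0.35, adjusted p = 2.08e-07), the third largest rise. Without J saline replicate 1, the highest J saline array for Ccl8, the difference in J was 6.52, and without J cerulein replicate 1 it was 5.61. A larger number of cells that express a gene and more RNA per cell cannot be told apart in whole tissue, here and for every gene below.

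Ccl12, the neighbour of Ccl8, exceeded log2 4 in J cerulein mice only. It read log2 5.33, 4.14 and 3.38 there and 2.93, 2.84 and 2.87 in NHsd cerulein mice, against 2.80, 2.95 and 2.56 in J saline mice and 2.59, 2.67 and 2.67 in NHsd saline mice. The 3 J cerulein arrays were above all 9 others, a pattern that was not counted over all genes, and they spread widely (mean 4.28 ± 0.98, SD, n = 3). Ccl12 did not pass the filter and so was not among the tested genes. As all J saline arrays lay under log2 4, the rise in J was at least 1.22-fold. Without the filter, over 18194 genes, the measured difference in J passed the test (adjusted p = 0.0211), as a rise did for 20.8% of all genes in that setting. It also passed without J cerulein replicate 1 (adjusted p = 0.00809), where the mean of the other J cerulein arrays was 3.76, itself under log2 4. With values under log2 4 set to log2 4 it did not pass (0.49, adjusted p = 0.380). Both NHsd groups lay under log2 4, so no fold is given there.

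The other ligands of Ccr2 showed no signal above log2 4. Ccl2 read 2.54 on 11 of the arrays and 2.57 on the remaining one, a J saline array. Ccl7 ranged over 2.42 to 2.60 in J cerulein and 2.39 to 2.59 in NHsd cerulein mice, against 2.59 to 3.32 in J saline and 2.59 to 3.17 in NHsd saline mice. Each rests on 1 probe set, and a value near the array's floor does not show that the transcript was absent.

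Ccl11, the eotaxin gene, lay at similar levels in all groups. It read 6.09, 6.29 and 6.12 in J cerulein mice, against 5.77, 5.96 and 6.25 in J saline mice. In NHsd it read 5.89, 6.11 and 6.17 after cerulein, against 5.56, 5.44 and 5.73 after saline. The groups overlapped in J and did not overlap in NHsd, as for 57.3% of all tested genes there.

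The difference of Ccl11 was 0.48 in NHsd (SE 0.16, adjusted p = 0.0225) and 0.18 in J (SE 0.16, adjusted p = 0.360), near or under the median of all genes. In the mean of both substrains it was 0.33 (SE 0.11, adjusted p = 0.0203), and 59.8% of tested genes rose more. With the arrays shifted to equal medians it turned to -0.25 (adjusted p = 0.0958), and after quantile normalization to -0.26 (adjusted p = 0.0955), so it has no direction that holds across scalings. The call in NHsd was also lost without NHsd cerulein replicate 2 or 3 or NHsd saline replicate 1 or 2 (0.41 to 0.47), and that in the mean without NHsd cerulein replicate 3 (0.30) or J saline replicate 1 (0.27). The 4 eosinophil markers, with Epx and Siglecf among them, were under log2 4 on all 12 arrays.

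**Figure D1:**
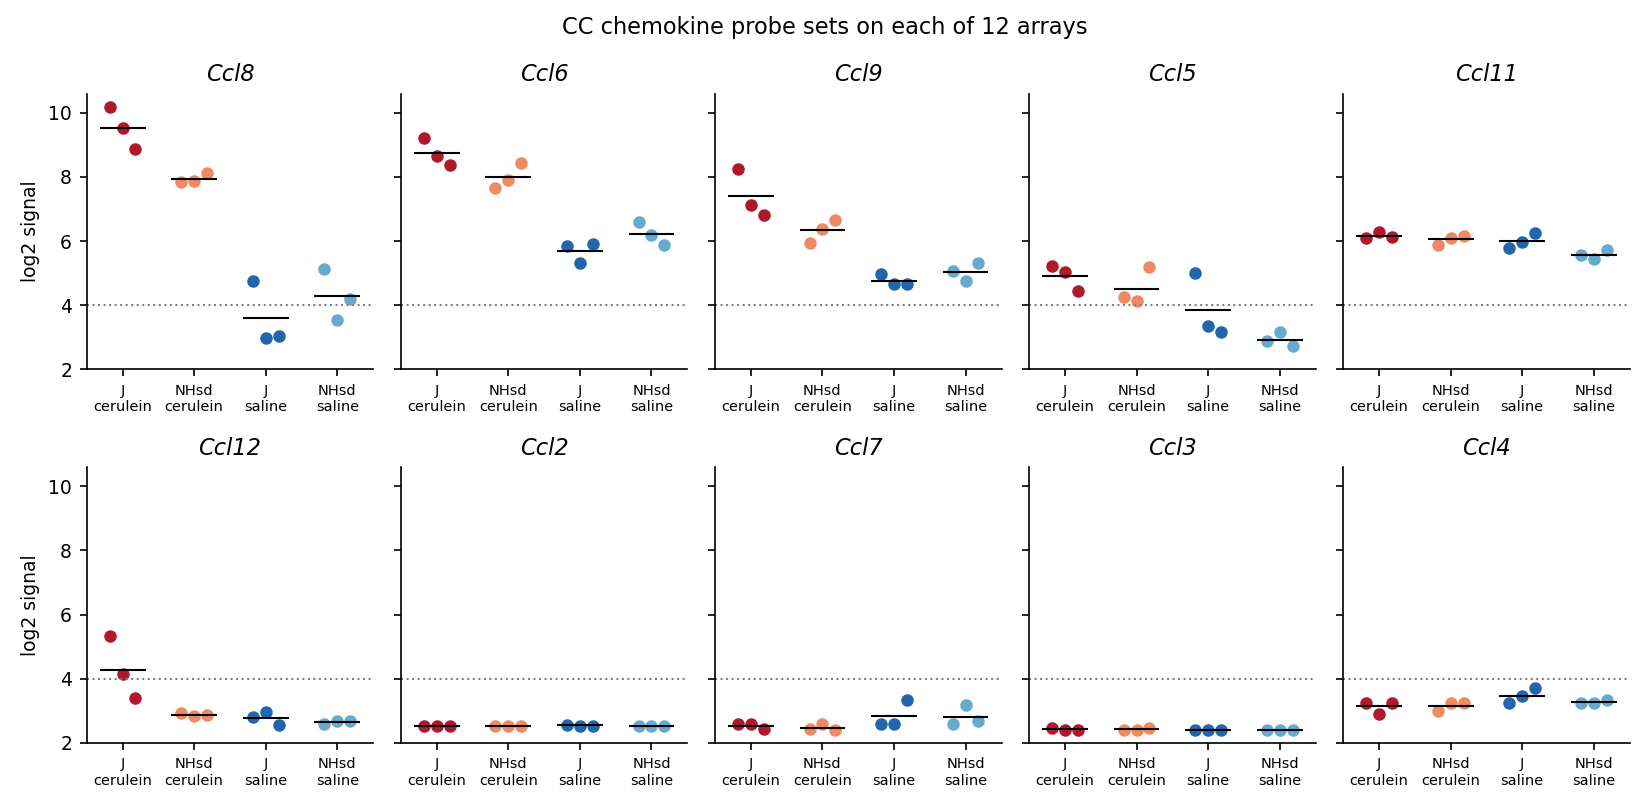
Log2 signal of the probe set of each CC chemokine (vertical axis) in the 4 groups (horizontal axis). Points are single mice, horizontal bars are group means (n = 3) and the dotted line is log2 4. Ccl8, Ccl6 and Ccl9 are higher on every cerulein array than on every saline array, as are 40.0% of all tested genes. Ccl12 is above log2 4 on 2 J cerulein arrays, and Ccl2, Ccl3, Ccl4 and Ccl7 are under log2 4 on all arrays.

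Both rodent Ccr1 ligands rose in both substrains. Ccl6 read log2 9.21, 8.64 and 8.37 in J cerulein mice, against 5.84, 5.30 and 5.91 in J saline mice. In NHsd it read 7.66, 7.92 and 8.42 after cerulein, against 6.58, 6.20 and 5.89 after saline. No saline array reached any cerulein array, which held for 40.0% of all tested genes, and the 2 cerulein groups overlapped.

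The difference of Ccl6 was 3.06 in J (SE 0.27, adjusted p = 3.19e-06) and 1.78 in NHsd (SE 0.27, adjusted p = 0.000191), or 8.32-fold and 3.43-fold. The second probe set of Ccl6 differed by 3.46 in J and 1.49 in NHsd, both called. In the mean of both substrains the difference was 2.42 (SE 0.19, adjusted p = 4.13e-07), rank 186 from the largest rise.

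Ccl9 read log2 8.25, 7.13 and 6.80 in J cerulein mice, against 4.96, 4.66 and 4.66 in J saline mice. In NHsd it read 5.93, 6.39 and 6.67 after cerulein, against 5.06, 4.74 and 5.30 after saline. Here too the cerulein arrays were above the saline arrays in both substrains, as for 52.2% of all tested genes in J and 57.3% in NHsd. The J cerulein arrays were above the NHsd cerulein arrays, as for 7.94% of all tested genes.

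The difference of Ccl9 was 2.64 in J (SE 0.32, adjusted p = 3.26e-05) and 1.30 in NHsd (SE 0.32, adjusted p = 0.00449), or 6.21-fold and 2.45-fold. The call in NHsd did not hold with equal medians (0.71, adjusted p = 0.0730), after quantile normalization (0.71, adjusted p = 0.0703) or on the second probe set of the gene (0.74, adjusted p = 0.0756). On that second probe set the difference in J was 1.62 (adjusted p = 0.00151). In the mean of both substrains Ccl9 differed by 1.97 (SE 0.23, adjusted p = 9.29e-06).

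Of Ccl3, Ccl4 and Ccl5, Ccl5 alone passed the filter. Ccl5, which T cells, natural killer cells and other leukocytes make, read log2 5.22, 5.02 and 4.45 in J cerulein mice, against 5.01, 3.36 and 3.17 in J saline mice. In NHsd it read 4.25, 4.12 and 5.19 after cerulein, against 2.87, 3.17 and 2.73 after saline. The groups did not overlap in NHsd, as for 57.3% of all tested genes there, and in J they overlapped through J saline replicate 1, the array with Glycam1.

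All 3 NHsd saline arrays lay under log2 4, so the rise of Ccl5 in NHsd was at least 1.43-fold (measured log2 difference 1.59, SE 0.43, adjusted p = 0.00747). With values under log2 4 set to log2 4 that call was lost (0.52, adjusted p = 0.186), as it was after quantile normalization (0.91, adjusted p = 0.0703). In J the difference was 1.05 (SE 0.43, adjusted p = 0.0538) and did not pass. Without J saline replicate 1 it was 1.63 and passed (adjusted p = 0.00179). Glycam1 was the only measured lymph node marker above log2 4 on that array. Any part of lymph node tissue in its Ccl5 value was not tested. The difference in J also passed without J cerulein replicate 3 (1.27, adjusted p = 0.0429) and without NHsd cerulein replicate 3 (1.05, adjusted p = 0.0432). The mean of both substrains was 1.32 (SE 0.30, adjusted p = 0.00189). As 5 of the 6 saline arrays lay under log2 4 this size is inexact. With values under log2 4 set to log2 4 it was 0.54, or 1.45-fold (adjusted p = 0.0460), and in J 0.56, or 1.48-fold (adjusted p = 0.147).

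Ccl3 and Ccl4, the macrophage inflammatory proteins, stayed low. Ccl3 lay between 2.39 and 2.46 on all 12 arrays. Ccl4 lay between 2.89 and 3.25 in J cerulein and 2.98 and 3.25 in NHsd cerulein mice, against 3.25 to 3.71 in J saline and 3.25 to 3.35 in NHsd saline mice. No cerulein value of either gene came near log2 4.

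Counted together, 5 of the 5 tested members were called higher in the mean of both substrains, where 59.4% of all tested genes were. In NHsd 5 of 5 were called higher, against 48.7% of all genes, and in J 3 of 5, against 47.8%. With equal medians the counts were 4, 3 and 3 (26.6%, 20.2% and 20.9% of all genes), and after quantile normalization 4, 2 and 3 (28%, 21.4% and 21.8%). The median difference of the tested members was 1.97 in the mean of both substrains, 1.59 in NHsd and 2.64 in J. These members passed the filter in part through their cerulein values, so the counts describe 5 genes and not the 10.

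Whether the response differed between the substrains was asked with the difference of the cerulein effects, J minus NHsd. It was 2.27 for Ccl8 (95% CI 0.77 to 3.77, unadjusted p = 0.00635 by limma), 1.34 for Ccl9 (0.36 to 2.32) and 1.28 for Ccl6 (0.45 to 2.11). These ranked 3, 23 and 30 among 8505 genes. After adjustment over all genes none was called (adjusted p = 0.702 for each). One gene in all, or 0.0118% of those tested, was called, and 598 genes, 7.03%, had an unadjusted p below 0.05.

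For Ccl5 the difference of effects was -0.55 (95% CI -1.86 to 0.77, adjusted p = 0.813), and it was 0.0345 without J saline replicate 1. For Ccl11 it was -0.30 (95% CI -0.79 to 0.19, adjusted p = 0.747). Without J cerulein replicate 1 the differences were 1.94 for Ccl8, 1.04 for Ccl6 and 0.91 for Ccl9, and none was called. With values under log2 4 set to log2 4, that of Ccl8 was 1.76 (adjusted p = 0.544).

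**Figure D2:**
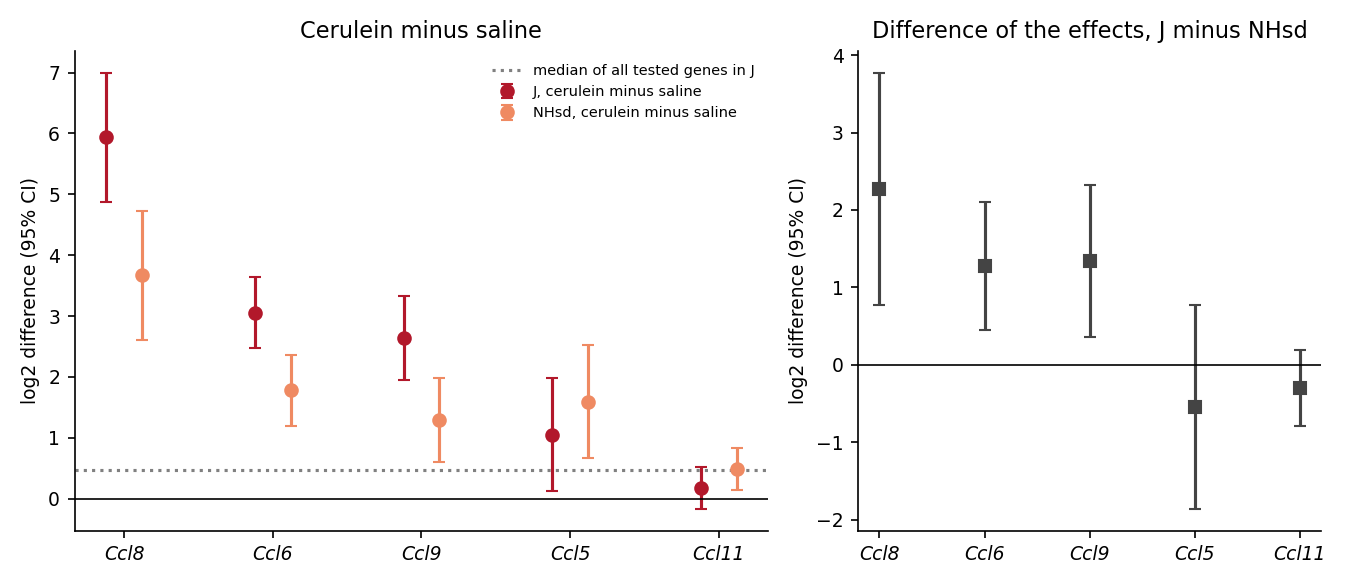
Left, log2 difference, cerulein minus saline, with 95% confidence intervals for the 5 tested members in J (dark) and NHsd (light), n = 3 mice per group; the dotted line is the median of all tested genes in J, 0.47. Right, the difference of these effects, J minus NHsd; the intervals of Ccl8, Ccl6 and Ccl9 lie above 0 before adjustment over genes, and those of Ccl5 and Ccl11 span 0.

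Set directly against NHsd cerulein mice, J cerulein mice had Ccl8 higher by 1.58 (SE 0.49, adjusted p = 0.323), Ccl9 by 1.07 (SE 0.32, adjusted p = 0.306) and Ccl6 by 0.74 (SE 0.27, adjusted p = 0.430). Of the 5 members 0 were called by limma, and 3 had an unadjusted p below 0.05, as 9.41% of all genes did; 0.223% of all genes were called either way. The arrays of the 2 groups did not overlap for Ccl8 and Ccl9, which held for 7.94% of all genes in that direction. Without J cerulein replicate 1 these differences were 1.25 for Ccl8, 0.64 for Ccl9 and 0.51 for Ccl6. Between J saline and NHsd saline mice 0 members were called by limma, where 0.0588% of all genes were, and 1 had an unadjusted p below 0.05, as 6.42% of all genes did. That was Ccl11, higher by 0.42 in J saline mice (adjusted p = 0.682), with no overlap, as for 8.41% of all genes in that direction. Ccl8 and Ccl6 differed by -0.69 and -0.54 there (adjusted p = 0.851 and 0.807).

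In J cerulein mice the order of the replicates was the same, 1 above 2 above 3, for Ccl5, Ccl6, Ccl8, Ccl9 and Ccl12, and it was 2, 3, 1 for Ccl11. In NHsd cerulein mice replicate 3 was the highest for Ccl5, Ccl6, Ccl8, Ccl9 and Ccl11. In neither saline group did these genes share 1 order. Over deviations from the group means, Pearson's r between Ccl5, Ccl6, Ccl8 and Ccl9 ran from 0.46 to 0.69 (12 arrays, 4 groups), and that of Ccl11 with these 4 from -0.44 to 0.10. These arrays share their scaling, and the values are given as a description.

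The summed signal of the macrophage markers was log2 13.05, 13.10 and 12.61 in J cerulein and 12.38, 12.47 and 12.67 in NHsd cerulein mice, against 9.77, 9.06 and 9.34 in J saline and 9.64, 9.41 and 9.18 in NHsd saline mice. All 12 of the tested macrophage markers, of 13 in the list, were called higher in the mean of both substrains, as were 59.4% of all tested genes. The remaining one, Itgam, was under log2 4 on all arrays. Cd68, Adgre1, Cd14 and Ms4a7 lay under log2 4 on every saline array and passed the filter only through their cerulein arrays. Their calls therefore add no independent result to the count. The tested macrophage markers moved with Ccl6, Ccl8 and Ccl9 between treatments, and their part in those rises was not tested. Within J cerulein mice, replicate 1, the array with the highest of these chemokines, was the highest for 6 of the 12 tested macrophage markers, such as Tyrobp (9.52) and C1qb (10.96). It was the lowest for 3, namely Csf1r (8.46), Adgre1 (6.06) and Mpeg1 (8.39). Of the 10 T and NK cell markers 8 were under log2 4 on all arrays. Gzma, a granule protease of killer lymphocytes, reached 4.41 on J cerulein replicate 1 and at most 3.41 elsewhere, and did not pass the filter. Zap70, a kinase of T cell receptor signalling and the marker of this list that was tested, averaged 3.39 after cerulein, against 4.59 after saline, and was called lower (adjusted p = 9.79e-06). As every cerulein array lay under log2 4, the size of that fall is not exact, and Zap70 passed the filter only through its saline arrays. S100a8, a neutrophil protein, ranged from 4.46 to 8.01 in J cerulein mice and reached 8.95 in NHsd cerulein mice, against 4.13 in J saline and 8.01 in NHsd saline mice. Of the 6 measured neutrophil markers 4 were under log2 4 on all arrays. Of the 2 tested, 0 were called in the mean of both substrains, where 59.4% of all tested genes were called higher. In J 1 was called higher, against 47.8% of all tested genes, and 0 were under either rescaling.

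Against 59.4% of all tested genes, 7 of 7 tested fibroblast and stellate cell markers, of 8 in the list, were called higher in the mean of both substrains (median log2 difference 2.53). The remaining one, Des, did not pass the filter and went the other way. It averaged 3.42 in J cerulein and 3.52 in NHsd cerulein mice, against 3.59 in J saline and 4.21 in NHsd saline mice. The summed signal of the 8 markers was log2 12.26 to 13.67 in J cerulein and 12.65 to 13.30 in NHsd cerulein mice, against 10.97 to 11.31 in J saline and 10.58 to 10.97 in NHsd saline mice. Against 10.1% of all tested genes called lower and 59.4% called higher, 5 of 7 tested acinar markers, mostly digestive enzymes, were called lower and 1 higher. Their sum was 16.98 to 17.27 in J cerulein and 17.07 to 17.46 in NHsd cerulein mice, against 17.66 to 17.68 in J saline and 17.64 to 17.67 in NHsd saline mice. The part of these cells in the chemokine values was not tested.

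**Figure D3:**
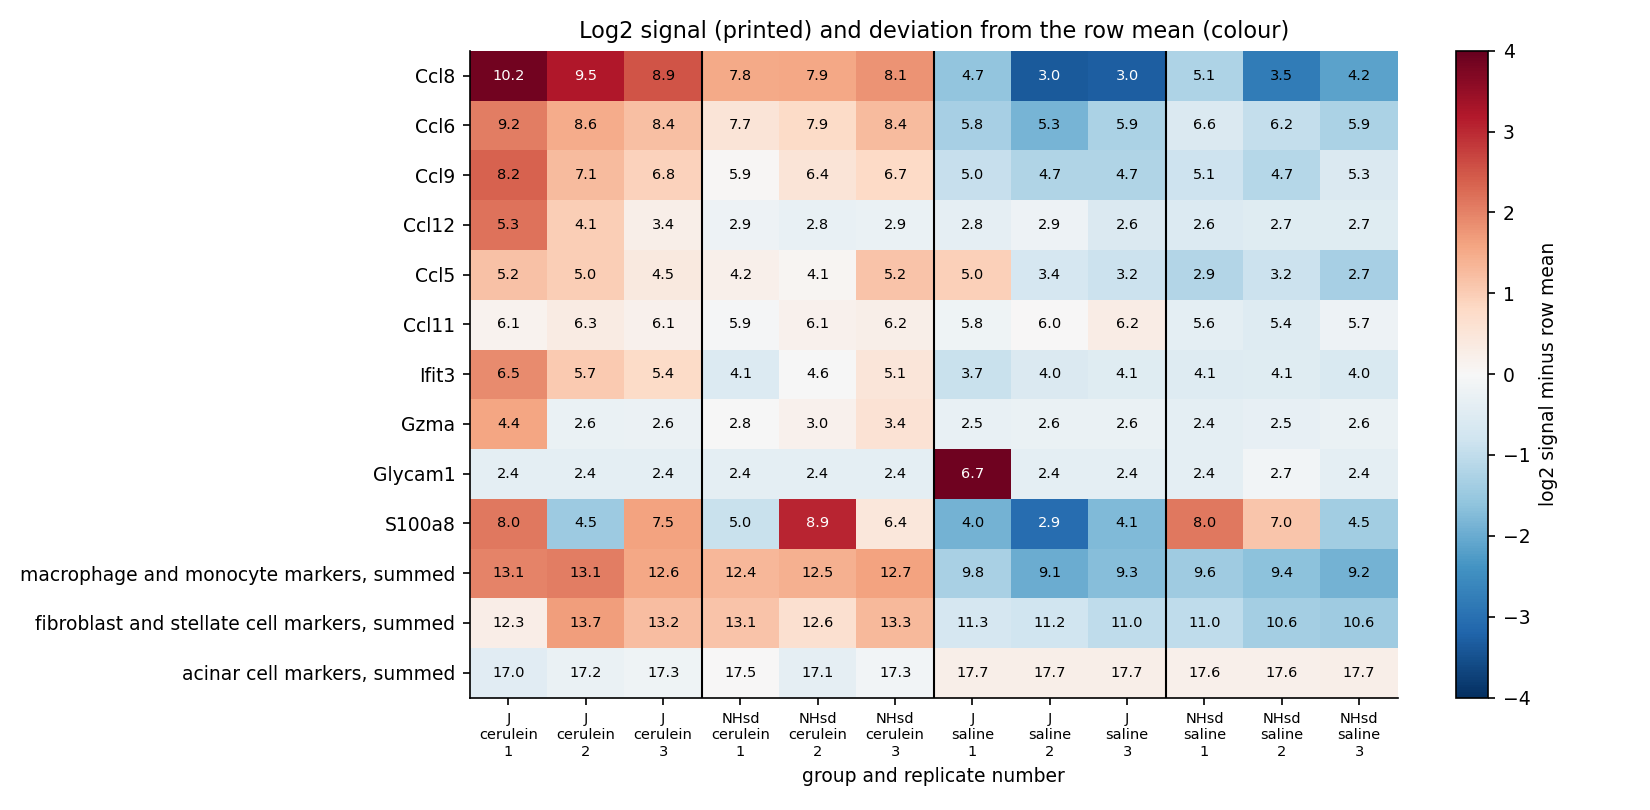
Log2 signal on each array (numbers) and its deviation from the row mean (colour) for 6 CC chemokines, 4 genes of other cells or pathways chosen after their values were seen, and the summed markers of 3 cell types. Columns are single mice by group and replicate. J cerulein replicate 1 is highest of its group for Ccl8, Ccl6, Ccl9, Ccl12 and Ccl5 and for Ifit3, and J saline replicate 1 alone shows Glycam1.

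Few receptor genes gave a signal above log2 4. Of the 10 CC receptor genes measured, only Ccr2, the monocyte receptor, passed the filter, and Ccr4, Ccr6, Ccr7, Ccr9, Ccr10 and Ccrl2 were under log2 4 on all arrays. Its probe set with the highest mean averaged 5.15 ± 0.07 in J cerulein and 5.06 ± 0.11 in NHsd cerulein mice, against 4.82 ± 0.13 in J saline and 4.87 ± 0.18 in NHsd saline mice (SD, n = 3 each). The difference was 0.26 in the mean of both substrains (adjusted p = 0.0358), and with equal medians or quantile normalization it was called lower.

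Another probe set of Ccr2, singled out after its values were seen, averaged 5.42 ± 0.22 in J cerulein and 4.73 ± 0.56 in NHsd cerulein mice, against 3.27 ± 0.20 in J saline and 3.15 ± 0.00 in NHsd saline mice. As all its saline arrays lay under log2 4, its rise was at least 2.68-fold in J (adjusted p = 2.15e-05) and at least 1.66-fold in NHsd (adjusted p = 0.000219), adjusted over all probe sets of single genes that passed. That probe set passed the filter only through its cerulein arrays. The other 2 of the 4 probe sets of Ccr2 were under log2 4 on all arrays. Ccr1, the receptor of Ccl6 and Ccl9, reached at most 3.66, Ccr3, that of Ccl11, was at 2.39 on all arrays, and Ccr8, that of Ccl8 in mice, was at 2.39 on every cerulein array.

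Atypical receptors, which bind chemokines without classical signalling, were measured with 4 genes, of which 2 passed. Ackr3 averaged 5.97 ± 0.18 in J cerulein and 5.62 ± 0.24 in NHsd cerulein mice, against 5.22 ± 0.37 in J saline and 4.71 ± 0.84 in NHsd saline mice. It differed by 0.83 in the mean of both substrains (SE 0.24, adjusted p = 0.00752), a call lost with rescaled arrays. Ackr1, the receptor of red cells and venules, differed by -0.11 (adjusted p = 0.406) and was called lower with rescaled arrays, and Ackr2 and Ackr4 were under log2 4 on all arrays. Of 11 other CC chemokines 8 had a probe set and 0 passed the filter. Ccl1, Ccl17, Ccl20, Ccl22, Ccl24, Ccl25 and Ccl28 were under log2 4 on all arrays. The highest single value among these was 4.27, for the skin chemokine Ccl27a on a J cerulein array.

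Genes that control or accompany chemokine expression were counted from 3 lists, against the 59.4% of all genes called higher in the mean of both substrains. Of 7 tested genes of inflammatory cytokines and the NF-κB pathway 5 rose, among them the adhesion molecules Vcam1 (log2 difference 2.07) and Icam1 (at least 1.36-fold) and Birc3, an inhibitor of cell death (0.88). With equal medians 2 were called higher and 2 lower, and after quantile normalization 3 higher and 2 lower. Of 4 tested genes of type 2 signalling 3 rose, namely Mrc1, the mannose receptor of macrophages (3.06), Il13ra1, a receptor chain for interleukins 4 and 13 (1.91), and Stat6 (0.52). Under either rescaling 2 of these 4 were called higher and 1 lower. Of 4 tested interferon response genes 3 rose in the mean of both substrains, namely Irf8, a factor of the monocyte lineage (at least 2.65-fold), Ifit3 (log2 difference 1.20) and Ifit1. Under either rescaling 3 were called higher and 1 lower. In J 3 of these 4 were called higher (median 1.91) and in NHsd 1 (median 0.36), where Ifit1 and Ifit3 were not called. The difference of these effects was called by limma for 0 of the 4, and 2 had an unadjusted p below 0.05, Ifit1 (adjusted p = 0.0574) and Ifit3 (adjusted p = 0.702). With equal medians 0 of the 4 were called, and after quantile normalization 1 was, as were 2 of all 8505 tested genes. Icam1 and Irf8 passed the filter only through their cerulein arrays, and Ifit1 only through its J cerulein arrays.

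The interferon-induced Ifit1 and Ifit3 showed the same order of J cerulein mice as Ccl8 and Ccl12. That order was not particular to these genes. Of the 12 tested macrophage markers 6 had it too, namely Tyrobp, Lyz2, Ms4a7, C1qa, C1qb and C1qc. The share of all genes with that order was not counted. Ifit1 read 5.20, 4.81 and 4.44 in J cerulein mice, at most 3.12 in NHsd cerulein mice and at most 2.78 in both saline groups. It was called higher by limma in J than in NHsd cerulein mice (1.83, SE 0.19, adjusted p = 0.00116), at least 1.76-fold. As Ifit1 passed the filter only through its J cerulein arrays, that call is no independent result. Ifit3 read 6.52, 5.66 and 5.37 in J cerulein and 4.05, 4.58 and 5.09 in NHsd cerulein mice. Its J minus NHsd difference of 1.28 after cerulein was not called (adjusted p = 0.157).

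By likeness of profile, the non-member genes closest to the mean standardized profile of the 5 tested members over 12 arrays were Dnajc9, a DnaJ-family gene (r = 0.991), Lmo2, a transcription cofactor of blood cells (0.989), Pop4 (0.989), Snx5 (0.989) and Lin54 (0.985). The arrays form a cerulein and a saline cluster, and these values mostly follow that split. By deviations from the group means, the closest gene to Ccl6 was Plac8, a gene of myeloid and other cells (0.973), to Ccl8 Slc19a1, a folate carrier (0.960), and to Ccl5 Cep57l1 (0.960). The closest to Ccl9 was Ndufb10, a subunit of mitochondrial complex I (0.959), and to Ccl11 Sertad4 (0.958). Plac8 read 8.66, 7.74 and 7.35 in J cerulein mice. As it was picked for its likeness to Ccl6, the order of mice that it shares with Ccl6 is no separate result. Each of these correlations is the highest among all tested genes outside the members, so its size is partly due to that choice.

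**Figure D4:**
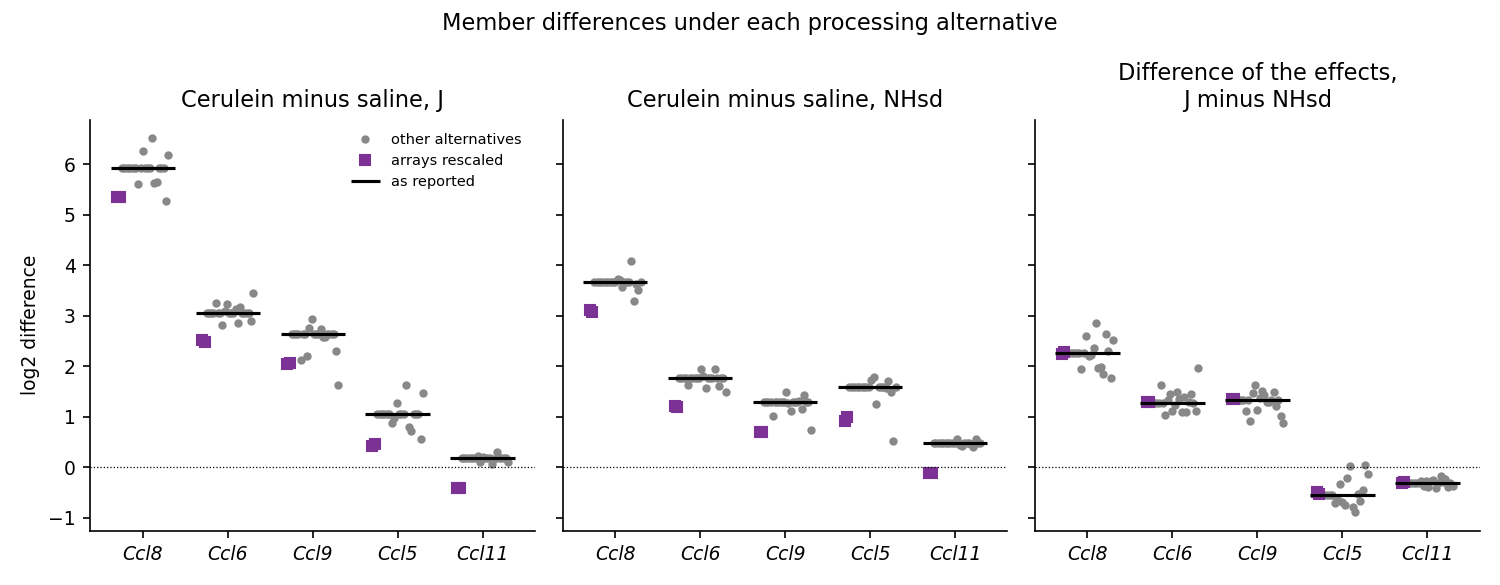
Log2 difference of the 5 tested members (horizontal axis) as reported (bars), with the arrays rescaled (squares) and under each other alternative (circles), for the cerulein effect in J and in NHsd and for the difference of the effects. Ccl8, Ccl6 and Ccl9 stay above 0 in all 3 panels, and Ccl11 falls below 0 in both substrains when the arrays are rescaled.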

How the data were processed

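Expression was measured in 12 mouse pancreas samples, 3 per group, on Affymetrix arrays. The authors' deposited values are log2 signals; GCRMA and Partek are named, with no version, in the submitters' processing notes, and further steps are not given in the sources used here. Values were used as deposited. Of 45101 probe sets, 34958 carried 1 gene symbol, 932 several and 9211 none; the last 2 kinds were left out. The number of arrays limits the precision.

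The model, fitted in limma 3.58.1 under R 4.3.3, had 1 mean per group, an intensity trend, 8 residual degrees of freedom, and was two-sided, with Benjamini-Hochberg adjustment over 8505 genes and a threshold of 0.05. On simulated data for NHsd over 8505 genes, 67 genes were given a 1.5-fold change, 67 a 2-fold change and 66 a 4-fold change. These were recovered in 19.4%, 61.2% and 97.0% of cases, and 9 unchanged genes were called. In the measured NHsd comparison 55.3% of genes were called. Recovery depends on the share of changed genes, so these rates do not carry over to that comparison. The members and lists were chosen with earlier results of these data known. All members are named, and the other CC chemokines and receptors reported here; of other lists, counts and up to 3 called genes with the largest change; and the nearest genes by Pearson's r. Genes outside this rule are said to be so or serve as cell markers.

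Alternatives were 2 rescalings, no filter, a filter at log2 6, no trend, robust moderation, other probe sets, only the groups compared, a replicate block, and leaving out each array. Chosen after seeing the data were values under log2 4 set to log2 4, leaving out J cerulein replicate 1 and J saline replicate 1 together, and, for Ccl12 without the filter, values so set or J cerulein replicate 1 left out. Same-numbered samples had residual correlations of -0.16 to 0.34, over 0.1 in 6 of 18 pairs, so the numbers were not taken to pair the samples. Promoters were aligned with Biopython 1.88; figures were drawn with matplotlib 3.10.9 (numpy 2.4.6, pandas 2.3.3, Python 3.11.15).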

Additional observations from a re-analysis of the deposited data

Results flagged for a closer look

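Ccl12 lay outside the tested genes, as it exceeded log2 4 on 2 of the 12 arrays. Its mean log2 signal was 4.28 in J cerulein mice, against 2.77 in J saline mice, and it drew attention as a signal above the saline level in a gene that the comparisons left out. In NHsd cerulein mice it was 2.88, against 2.65 in NHsd saline mice.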

How the results depend on the processing

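The rises of Ccl8 and Ccl6, in each substrain and in their mean, kept direction and side of the threshold under every alternative run. In NHsd the count of members called higher was 5, and it was 3 with equal medians and 2 after quantile normalization. Ccl11 reversed when the arrays were rescaled: by equal medians to -0.25 in the mean of both substrains, -0.40 in J and -0.11 in NHsd, and by quantile normalization to -0.26, -0.41 and -0.11. Leaving out single arrays, the Ccl5 difference of effects ran from -0.8838 to 0.0345 (without J saline replicate 1), and it was 0.0427 with values under log2 4 set to log2 4. The cause of these shifts was not tested. The replicate block changed no call: Ccl8 in J was 5.94 with it, and the pairing check did not bear out the numbers. In J, leaving out both arrays numbered 1 called 4 members higher in place of 3, with Ccl5 at 1.47 (adjusted p = 0.00526). Over the single members' differences, the alternatives gave 8 reversals, 13 lost calls and 5 gained calls, and 666 kept both direction and side. Of the 10 members, those under log2 4 cannot be ranked at this signal over background.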
